A study of Mus musculus with 16 samples.

Results

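The 10 genes described here are Pparg and 9 genes linked to it or to alveolar macrophages, namely Fabp4, Fabp5, Plet1, Krt79, Car4, Chil3, Ear2, Rbp4 and Cidec. They were picked by symbol from the 22287 genes of the deposited count table. The table covers mouse bone marrow derived macrophages (BMDMs) of the C57BL/6J strain at 8 weeks of age, grown for 7 days with GM-CSF (GM) or M-CSF (M). Cells were kept on dishes treated for tissue culture (TC) or on untreated dishes (noTC), and were harvested at steady state after vehicle or upon LPS challenge for 3 h. The 8 groups, each with 2 libraries, are GM-TC, GM-noTC, M-TC, M-noTC, GM-TC-LPS, GM-noTC-LPS, M-TC-LPS and M-noTC-LPS. The vehicle groups are the controls for LPS. GM and M cultures were seeded at different densities, so growth factor and density cannot be told apart. All values are bulk RNA, in which fewer cells of a type and less RNA per cell cannot be told apart.

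Pparg encodes PPARγ, a nuclear receptor that is activated by fatty acids and binds DNA together with a retinoid X receptor (RXR). In the lung, GM-CSF induces PPARγ in developing alveolar macrophages, and the receptor turns on genes for lipid uptake, transport and storage that these cells use to clear surfactant. Mice that lack GM-CSF or PPARγ in myeloid cells accumulate surfactant lipid in the alveoli. LPS is a bacterial ligand of TLR4 and induces inflammatory genes within hours.

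Total counts lay between 17527805 and 31458374 per library, and 3 counts corresponded to 0.0954 to 0.171 counts per 1000000 counts of a library (CPM). Unless stated otherwise, CPM below are scaled with the TMM factors of edgeR, and values of a group are the mean ± SD of its 2 libraries. A gene was called when the adjusted p of edgeR's quasi-likelihood test (Benjamini-Hochberg over the 12514 genes tested) was under 0.05 and the fold change exceeded 2. The 4 steady state TC libraries stood apart. Their summed level of 7 heart muscle markers was 21.2 to 57.3 CPM, and it was at most 0.872 CPM in the other 12 libraries. Genes low in the steady state TC libraries and high elsewhere were slightly higher on noTC than on TC at steady state. Their median excess was 0.675% (GM) and 0.573% (M) of their level in other libraries, estimated from 7 genes in each. It is called the carried share below, but whether it came from other libraries or from expression on noTC was not tested. The dish at steady state and LPS on TC dishes cannot be told apart from the split by heart muscle markers. Each comparison of GM with M, LPS on noTC dishes and the dish upon LPS challenge lie within 1 side of that split. The 7 macrophage markers were above 1 CPM in every group, with summed levels of 19981 to 46554 CPM, most of it Lyz2 (group means 15434 to 41304 CPM). On TC, 1 of the 7 was called higher in GM than in M and 3 lower, where 13.2% and 8.54% of all genes were. The called markers included Itgam (1873 against 733 CPM), Csf1r, the M-CSF receptor (842 against 2858 CPM), and Adgre1 (221 against 824 CPM).

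Of the 10 genes, 8 were tested. Krt79, a keratin gene named in lists of alveolar macrophage genes, had 0 counts in all 16 libraries. Cidec, a lipid droplet protein of fat cells, had 15 counts in all, with at most 3 in any library, and 14 of them lay in GM groups. The remaining 8 genes fell into 2 kinds. Plet1, Car4, Chil3, Ear2 and Rbp4 were seen almost only in GM libraries, while Pparg, Fabp4 and Fabp5 were expressed in GM and M alike and differed by 1.06-fold to 3.42-fold. Per kb of transcript, the steady state order in GM-TC ran from Fabp5 at 867 CPM per kb over Chil3 (533), Rbp4 (309), Fabp4 (107), Ear2 (88.9) and Plet1 (24.9) to Car4 (17.7) and Pparg (17.0). The libraries of Car4 and Pparg overlapped on this scale, and those of the other neighbours did not.

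**Figure D1:**
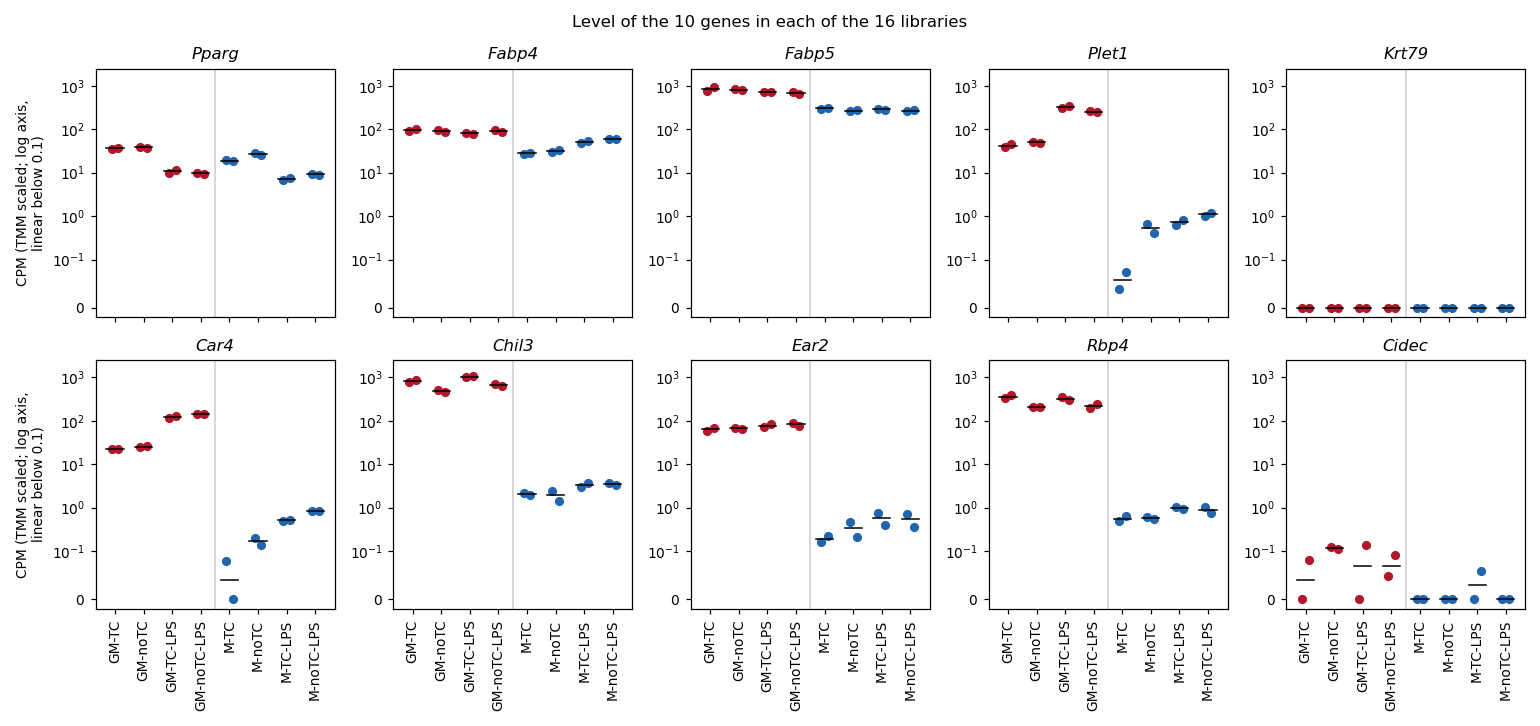
Level of each gene in every library. The vertical axis is TMM scaled CPM on a log axis that is linear below 0.1, red points are GM libraries, blue points are M libraries, and bars are group means of 2 libraries. Plet1, Car4, Chil3, Ear2 and Rbp4 lie at 21.9 CPM or more in every GM library and at 3.72 CPM or less in every M library.

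Pparg (ENSMUSG00000000440) lies on chromosome 6 from 115360951 to 115490399 on the plus strand of GRCm38 in GENCODE M21, and it overlaps the antisense gene Gm44079, whose reads cannot be told apart from its own where counting ignored strand. At steady state the GM-TC libraries had 35.1 and 37.2 CPM of Pparg and the GM-noTC libraries 38.9 and 37.7, against 19.1 and 18.6 for M-TC and 28.4 and 25.8 for M-noTC. Both GM groups were above both M groups, without overlap. Comparing with M, Pparg was 1.92-fold higher in GM-TC (log2 fold change 0.94, SE 0.08, edgeR adjusted p = 9.2e-10) and 1.42-fold higher in GM-noTC (0.50, SE 0.074, edgeR adjusted p = 4e-06). Neither difference passed the 2-fold rule. M-CSF cells thus held 52.1% of the GM level of Pparg on TC and 70.7% on noTC.

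Upon LPS challenge Pparg fell in all 4 comparisons. The level was 10.1 and 11.4 CPM for GM-TC-LPS, 10 and 9.44 for GM-noTC-LPS, 6.69 and 7.73 for M-TC-LPS and 9.29 and 9.08 for M-noTC-LPS. Every LPS library was below every steady state library. In GM the log2 fold change was -1.75 (SE 0.09) on TC and -1.97 (SE 0.089) on noTC, and in M it was -1.39 (SE 0.1) on TC and -1.56 (SE 0.092) on noTC, with edgeR adjusted p-values between 8.2e-15 and 4.2e-11. In the LPS groups the difference between growth factors was smaller. Pparg remained 1.5-fold higher in GM-TC-LPS than in M-TC-LPS (0.59, SE 0.11, edgeR adjusted p = 0.00012), and between GM-noTC-LPS and M-noTC-LPS the log2 difference was 0.085 with a 95% interval from -0.14 to 0.31 (edgeR adjusted p = 0.51).

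The fall upon LPS was larger in GM than in M by 0.36 on the log2 scale on TC (95% interval of the difference -0.65 to -0.063, edgeR adjusted p = 0.048) and by 0.42 on noTC (-0.69 to -0.14, edgeR adjusted p = 0.016). The first of these passed in the fit described but in none of the other scalings, tools or filters tried, and the second was lost with library size scaling (-0.20, edgeR adjusted p = 0.24) and with DESeq2 (adjusted p = 0.068). The TC difference was also lost without GM-TC replicate 2, either M-TC library, GM-TC-LPS replicate 1 or M-TC-LPS replicate 2 (-0.36 to -0.26, edgeR adjusted p = 0.081 to 0.24), and the noTC difference without GM-noTC replicate 1, M-noTC replicate 2, GM-noTC-LPS replicate 2 or M-noTC-LPS replicate 1 (-0.40 to -0.34, edgeR adjusted p = 0.055 to 0.088). Of the 8 genes, 2 passed this comparison of LPS responses on TC (Pparg and Fabp4) and 3 on noTC (Pparg, Fabp4 and Plet1), and among all genes tested 41.1% and 36.2% did.

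The order of the 8 groups for Pparg was GM-noTC (38.3 ± 0.818 CPM), GM-TC (36.2 ± 1.49), M-noTC (27.1 ± 1.87), M-TC (18.9 ± 0.388), GM-TC-LPS (10.8 ± 0.878), GM-noTC-LPS (9.74 ± 0.424), M-noTC-LPS (9.19 ± 0.15) and M-TC-LPS (7.21 ± 0.732). The steps from GM-TC to M-noTC and from M-TC to GM-TC-LPS were not tested, and their libraries did not overlap. Of the tested neighbours, those that did not pass were GM-noTC and GM-TC (edgeR adjusted p = 0.61), GM-TC-LPS and GM-noTC-LPS (edgeR adjusted p = 0.62), and GM-noTC-LPS and M-noTC-LPS (edgeR adjusted p = 0.51). In M cells Pparg was 1.43-fold higher on noTC than on TC at steady state (0.52, SE 0.079, edgeR adjusted p = 3.3e-05) and 1.28-fold higher upon LPS challenge (0.36, SE 0.12, edgeR adjusted p = 0.033), the latter lost with DESeq2 (adjusted p = 0.1). A difference of any size between the dishes passed that adjusted p for 27.2% and 23.3% of all genes in M.

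The 5 other genes whose group means followed Pparg most closely over the 8 groups were Add3, Mfsd12, Elmo2, Daglb and Prkaca, with Pearson correlations of 0.986 to 0.991 on the log2(CPM + 1) scale among 8835 genes compared. The other 7 tested genes of the set had correlations with Pparg of 0.02 to 0.37, the lowest in Car4 and the highest in Fabp5. These are descriptions over 8 groups that share libraries and scaling.

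The RefSeq table holds 3 promoter windows of Pparg, and the second of them (GRCm38.p6, chr6:115362099-115362291, plus strand) is shown for the receptor gene as far as the bases before the next annotated exon. Capitals mark GAGGAA, the core that PU.1 binds, a myeloid factor. Motifs were searched on both strands in the 250 bases before the start.
Pparg: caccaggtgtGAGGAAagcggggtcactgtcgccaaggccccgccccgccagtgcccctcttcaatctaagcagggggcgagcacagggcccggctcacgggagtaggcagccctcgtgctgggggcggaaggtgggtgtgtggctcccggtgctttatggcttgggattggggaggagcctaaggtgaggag
The site AGGTCA, which nuclear receptors bind, lay 28 bases before the first Pparg start and 9 bases before the second, outside the stretch printed. Of 32851 RefSeq windows of the same length, 14% held AGGTCA and 23.3% held GAGGAA. A direct repeat of AGGTCA with 1 base between the copies, the form that PPAR and RXR bind together, was in 0.0335% of all windows and in none of the 12 windows of the 8 genes that the promoter table lists. Windows of Fabp4 and Fabp5 were not analysed here.

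Fabp4 and Fabp5 encode fatty acid binding proteins that carry lipids within the cell, and both are known PPARγ targets in macrophages or fat cells. Fabp4 (ENSMUSG00000062515, chromosome 3 from 10204088 to 10208576, minus strand) reached 91.2 and 101 CPM for GM-TC and 96.0 and 88.5 for GM-noTC, but only 27.6 and 28.6 for M-TC and 30.6 and 33.0 for M-noTC. GM libraries were above all M libraries. The difference was 3.42-fold on TC (log2 1.77, SE 0.075, edgeR adjusted p = 3.9e-15) and 2.89-fold on noTC (1.53, SE 0.072, edgeR adjusted p = 2.2e-14).

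Upon LPS challenge Fabp4 stood at 82.4 and 79.7 CPM for GM-TC-LPS and 93.8 and 84.8 for GM-noTC-LPS, against 47.8 and 53.3 for M-TC-LPS and 58.3 and 58.4 for M-noTC-LPS. All M libraries with LPS were above all M libraries without it, while GM-noTC and GM-noTC-LPS overlapped. Fabp4 rose 1.8-fold in M-TC (0.85, SE 0.079, edgeR adjusted p = 2.2e-09) and 1.83-fold in M-noTC (0.87, SE 0.074, edgeR adjusted p = 5.4e-10), below the 2-fold rule, and with library size scaling these log2 changes were 0.019 and 0.15 and did not pass (edgeR adjusted p = 0.83 and 0.066). In GM the log2 changes were -0.25 on TC (edgeR adjusted p = 0.0037) and -0.047 on noTC (95% interval -0.19 to 0.10, edgeR adjusted p = 0.56). The difference between the LPS responses of GM and M was -1.09 on TC (SE 0.1, edgeR adjusted p = 2.1e-08) and -0.92 on noTC (SE 0.1, edgeR adjusted p = 1.9e-07). With LPS, Fabp4 remained 1.6-fold and 1.53-fold higher in GM than in M on TC and noTC (edgeR adjusted p = 3.7e-08 and 1.3e-07).

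Fabp5 (ENSMUSG00000027533, chromosome 3 from 10012548 to 10016607, plus strand) was the most abundant of the 10 genes per kb in GM and M at steady state. The GM-TC libraries held 771 and 941 CPM and the GM-noTC libraries 828 and 801, against 294 and 316 for M-TC and 257 and 271 for M-noTC. With LPS these became 722 and 710 for GM-TC-LPS and 739 and 660 for GM-noTC-LPS, against 293 and 280 for M-TC-LPS and 268 and 271 for M-noTC-LPS. The GM and M ranges did not overlap with or without LPS. Fabp5 was 2.81-fold, 3.09-fold, 2.5-fold and 2.6-fold higher in GM on TC, noTC, TC with LPS and noTC with LPS, and it was called in all 4 comparisons (edgeR adjusted p between 8.3e-15 and 3.8e-13). With LPS Fabp5 was 1.2-fold lower in GM-TC and 1.16-fold lower in GM-noTC (edgeR adjusted p = 0.0028 and 0.0087). In M the log2 changes were -0.089 and 0.03 (edgeR adjusted p = 0.27 and 0.72), and the second was -0.70 with library size scaling. The LPS responses of Fabp5 in GM and M differed by -0.17 on TC and -0.25 on noTC (edgeR adjusted p = 0.19 and 0.057). The noTC difference passed without the filter of low genes (-0.23, edgeR adjusted p = 0.018) and with only the libraries compared (-0.25, edgeR adjusted p = 0.0046). It also passed without GM-noTC-LPS replicate 1 (-0.33). The TC difference passed without GM-TC replicate 1 (-0.29), and was 0.18 with library size scaling.

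Of the 8 tested genes, 7 were called higher in GM on TC and on noTC, where 13.2% and 13% of all genes were, and 6 were called higher in both comparisons with LPS, against 14.9% and 14.4% of all genes. None was called lower, while 8.54%, 9.2%, 10.1% and 10.1% of all genes were. The median log2 fold change of the 8 genes was 8.50 on TC and 6.88 on noTC, while that of all tested genes was 0.018 and 0. The genes were chosen with such differences already known, and scaling by library size shifted all genes by -0.29 at steady state without changing these counts.

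**Figure D2:**
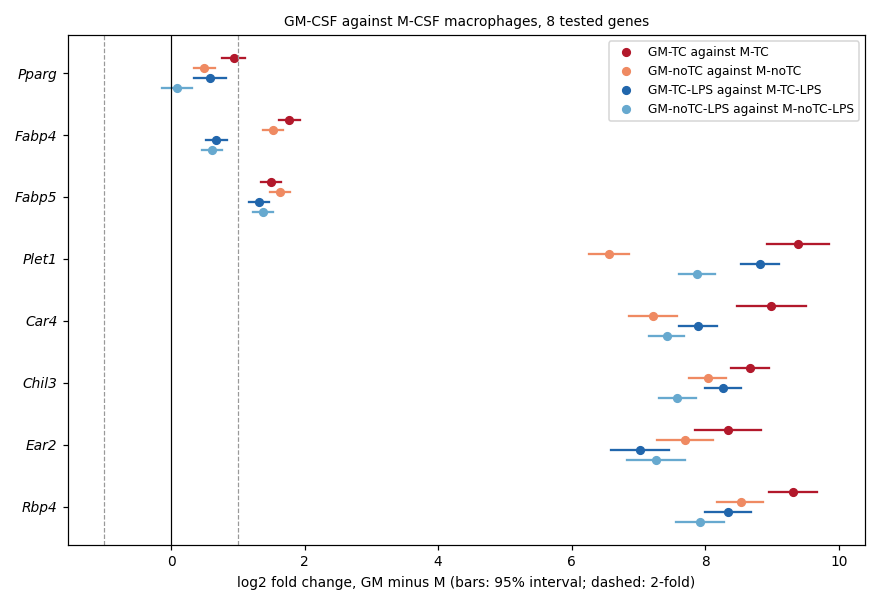
GM against M in 4 settings. The horizontal axis is the log2 fold change of edgeR with its 95% interval, and dashed lines mark a 2-fold change. Plet1, Car4, Chil3, Ear2 and Rbp4 lie between 6.55 and 9.39, and Pparg, Fabp4 and Fabp5 between 0.085 and 1.77. The fitted values of Plet1 and Car4 on TC rest on 3 and 2 counts in M-TC.

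Plet1, Car4, Chil3, Ear2 and Rbp4 separated the growth factors almost completely. Their level in M-TC was 0.136% to 0.3% of that in GM-TC, and that in M-noTC was 0.271% to 1.1% of that in GM-noTC. With LPS the ranges were 0.222% to 0.748% on TC and 0.411% to 0.647% on noTC. Among the 5845 genes at 20 CPM or more in GM-TC, 30 other genes had under 1% of their level in M-TC, and the lowest was Ccn3 at 0.0957%. On noTC, 21 other genes of 5847 did. The M-noTC and M LPS values have to be read beside the carried share. It was not estimated in the LPS libraries, where the mean of both estimates was assumed. With that share subtracted, Plet1 went from 38 to 7 counts in M-noTC, from 27 to 0 in M-TC-LPS and from 43 to 12 in M-noTC-LPS. Rbp4 went from 41 to 2, 37 to 0 and 35 to 1 in the same groups, and Chil3 from 132 to 25, 126 to 12 and 137 to 24. Nothing was subtracted from M-TC, where Rbp4 had 29 counts and Chil3 104. Before subtraction M-noTC and M-TC held 0.786 and 0.775 CPM of Rbp4 and 2.64 and 2.8 CPM of Chil3, scaled by library size. These 2 genes thus did not show an excess of the size of the share. The levels in these 3 groups are therefore not shown to be expression in M cells, nor shown to be carried over.

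Markers of other cells also differed between GM and M. The summed level of 8 neutrophil markers was 12.6 to 44.6 CPM in GM libraries and at most 2.05 CPM in M libraries, with 4 of the 8 under 1 CPM in each GM group. The 4 dendritic cell markers summed to 14.1 to 71.5 CPM in GM and at most 1.15 CPM in M. Of the 6 epithelial markers only Cdh1 exceeded 1 CPM, with 22.6 CPM in GM-TC and 48.4 in GM-noTC. Of the 5 eosinophil markers, the granule genes Epx, Prg2 and Prg3 were at or below 0.186 CPM in every group, while the receptor Ccr3 was called lower in GM than in M in all 4 comparisons and reached 3.25 and 3.69 CPM in M-TC-LPS and M-noTC-LPS. The 7 fat cell markers summed to 14.9 to 59.4 CPM, nearly all of it Lipe, a lipase that was called lower in GM than in M with LPS (16 against 59.2 CPM on TC), and Adipoq, Lep, Plin1 and Pck1 were at or below 0.0748 CPM. The part of neutrophil and dendritic cells in the differences of the set was not tested.

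Plet1 (ENSMUSG00000032068, chromosome 9 from 50494525 to 50505482, plus strand) encodes a surface protein of the placenta and epithelia that also marks alveolar macrophages, and it overlaps the gene Plet1os. Its steady state level was 38.6 and 45.6 CPM on TC and 51.9 and 47.4 CPM on noTC in GM. With LPS it was 313 and 340 CPM on TC and 257 and 256 CPM on noTC. The LPS libraries were far above those at steady state, without overlap. Plet1 rose 7.74-fold on TC (log2 2.95, SE 0.075, edgeR adjusted p = 2.4e-19) and 5.17-fold on noTC (2.37, SE 0.073, edgeR adjusted p = 7.5e-18). The response on noTC was smaller by 0.58 on the log2 scale (95% interval of the difference -0.79 to -0.37, edgeR adjusted p = 0.0035, passed by 0.783% of all genes). After subtraction of the carried share the difference was still -0.58 but did not pass (edgeR adjusted p = 0.085). Without GM-noTC replicate 1 it was -0.51 and no longer passed. With LPS, Plet1 was 1.27-fold lower on noTC than on TC (-0.35, SE 0.066, edgeR adjusted p = 0.0032).

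In M cells Plet1 had 3 counts in the 2 M-TC libraries, 38 in M-noTC, 27 in M-TC-LPS and 43 in M-noTC-LPS, and its highest level was 1.15 CPM. The ratio of GM-TC to M-TC was 733, with a counting interval of 251 to 3559 that covers counting error only. M-noTC exceeded M-TC by 0.645% of the mean of 10 other libraries, close to the carried share estimated for M-noTC. The same excess was 0.501% for Ear2 and 0.375% for Car4, but 0.0084% for Rbp4 and -0.042% for Chil3. Plet1 was the 1 gene of 8 called between M-noTC and M-TC (edgeR adjusted p = 0.00073, called either way for 3.45% of all genes), on 38 against 3 counts. With LPS none of the 8 was called between the dishes in M, where 1.81% of all genes were.

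Car4 (ENSMUSG00000000805, chromosome 11 from 84957786 to 84966044, plus strand) encodes a carbonic anhydrase anchored to the cell surface. Steady state GM libraries held 21.9 and 22.5 CPM on TC and 24.7 and 25.9 CPM on noTC. With LPS they held 114 and 128 CPM on TC and 145 and 142 CPM on noTC, again without overlap. Car4 rose 5.44-fold on TC (2.44, SE 0.074, edgeR adjusted p = 5.9e-18) and 5.68-fold on noTC (2.51, SE 0.072, edgeR adjusted p = 2.1e-18). Its response did not differ detectably between the dishes, with a log2 difference of 0.061 and a 95% interval from -0.15 to 0.28 (edgeR adjusted p = 0.92). In M, Car4 had 2, 12, 19 and 33 counts in M-TC, M-noTC, M-TC-LPS and M-noTC-LPS, and GM-TC exceeded M-TC by a ratio of 576 (counting interval 159 to 4764).

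Some markers of other cells were also higher with LPS in GM, and others were lower. On TC the summed dendritic cell markers went from 14.1 to 14.6 CPM at steady state to 61.5 to 67.2 CPM, mostly Ccr7 (9.41 to 56 CPM), and the summed neutrophil markers from 12.6 to 16.5 CPM to 28.2 to 36.2 CPM. On noTC the sums went from 16.6 to 17.3 CPM to 70 to 71.5 CPM and from 19.8 to 23.8 CPM to 33.8 to 44.6 CPM. Of 3 tested dendritic cell markers, 2 were called higher with LPS and 1 lower on each dish. The lower one was Cd209a, from 3.06 to 1.06 CPM on TC and from 5.3 to 1.26 CPM on noTC. The epithelial marker Cdh1 was also called lower, from 22.6 to 4.67 CPM on TC and from 48.4 to 8.13 CPM on noTC. The part of these cells in the rise of Plet1 and Car4 was not tested.

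Plet1 and Car4 were the 2 genes called higher with LPS in GM, and Pparg was the 1 called lower, on each dish. Among all genes 13.4% were called higher and 12.7% lower on TC, and 13.1% and 12.6% on noTC. In M, 3 genes were called higher on TC (Plet1, Car4 and Ear2) and 2 on noTC (Plet1 and Car4), with Pparg lower in both, against 17.3% higher and 18.5% lower among all genes on TC and 15.9% and 16.3% on noTC. The M calls of Plet1, Car4 and Ear2 rest on 43 counts or fewer in a group. After subtraction of the carried share, M-TC-LPS kept 0 of 27 counts of Plet1, 4 of 19 of Car4 and 9 of 22 of Ear2, and M-noTC-LPS kept 12 of 43 of Plet1 and 19 of 33 of Car4. The Plet1 response on noTC was larger in GM than in M by 1.32 on the log2 scale (edgeR adjusted p = 0.0043), and this was lost after subtraction of the carried share (0.78, edgeR adjusted p = 0.58) and without M-noTC replicate 1 (1.01, edgeR adjusted p = 0.08).

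The promoter windows of Plet1 (chr9:50494275-50494524, plus strand) and Car4 (chr11:84957504-84957753, plus strand), from RefSeq on GRCm38.p6, are shown because both genes rose with LPS. Capitals in Plet1 mark TGACCT, the reverse complement of AGGTCA, beginning 62 bases before the start, and capitals in Car4 mark a match to the NF-κB consensus 159 bases before the start.
Plet1: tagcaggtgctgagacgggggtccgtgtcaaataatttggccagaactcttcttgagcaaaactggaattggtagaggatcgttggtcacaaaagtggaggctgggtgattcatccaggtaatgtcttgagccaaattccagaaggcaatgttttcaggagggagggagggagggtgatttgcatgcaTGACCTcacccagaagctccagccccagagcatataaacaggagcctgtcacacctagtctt
Car4: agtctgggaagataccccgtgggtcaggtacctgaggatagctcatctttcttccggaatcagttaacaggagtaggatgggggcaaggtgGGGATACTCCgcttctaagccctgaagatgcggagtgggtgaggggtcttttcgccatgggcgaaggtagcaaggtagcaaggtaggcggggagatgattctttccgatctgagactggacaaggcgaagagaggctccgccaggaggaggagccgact
Of all 32851 windows, 7.25% held an NF-κB consensus match. Among the 8 listed genes Krt79 also held one, and that gene had no counts.

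Chil3 and Rbp4 were lower on noTC than on TC in GM cells. Chil3 (ENSMUSG00000040809, chromosome 3 from 106147554 to 106167564, minus strand) encodes a secreted chitinase-like protein without enzyme activity, known as Ym1. In GM, Chil3 had 768 and 872 CPM on TC against 502 and 460 on noTC, and with LPS 994 and 1075 CPM on TC against 715 and 616 on noTC. Each noTC library was below each TC library of the same treatment. The difference was 1.7-fold at steady state (log2 -0.77, SE 0.081, edgeR adjusted p = 1.1e-06) and 1.55-fold with LPS (-0.64, SE 0.08, edgeR adjusted p = 4.5e-05).

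Rbp4 (ENSMUSG00000024990, chromosome 19 from 38116629 to 38125281, minus strand) encodes the carrier of retinol in blood. Its GM libraries had 327 and 390 CPM on TC against 211 and 209 on noTC, and with LPS 347 and 296 CPM on TC against 193 and 239 on noTC. The noTC libraries were again below the TC libraries at steady state and with LPS. The difference was 1.71-fold at steady state (-0.77, SE 0.087, edgeR adjusted p = 3e-06) and 1.48-fold with LPS (-0.57, SE 0.087, edgeR adjusted p = 0.00037).

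None of the 8 genes passed the 2-fold rule between the dishes in GM. Only 1.39% of all genes did at steady state and 0.296% with LPS, so this does not set the 8 apart. At the adjusted p alone, Chil3 and Rbp4 passed at steady state and Plet1, Chil3 and Rbp4 (lower) and Car4 (higher) with LPS, where 7.54% and 2.8% of all genes passed. Heart muscle markers were low on both dishes in the LPS groups, so the lower Chil3 and Rbp4 on noTC were also measured between libraries on 1 side of that split. Pparg, Fabp4, Fabp5 and Ear2 did not pass between the dishes in GM, and their log2 differences had 95% intervals within -0.37 and 0.31.

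**Figure D3:**
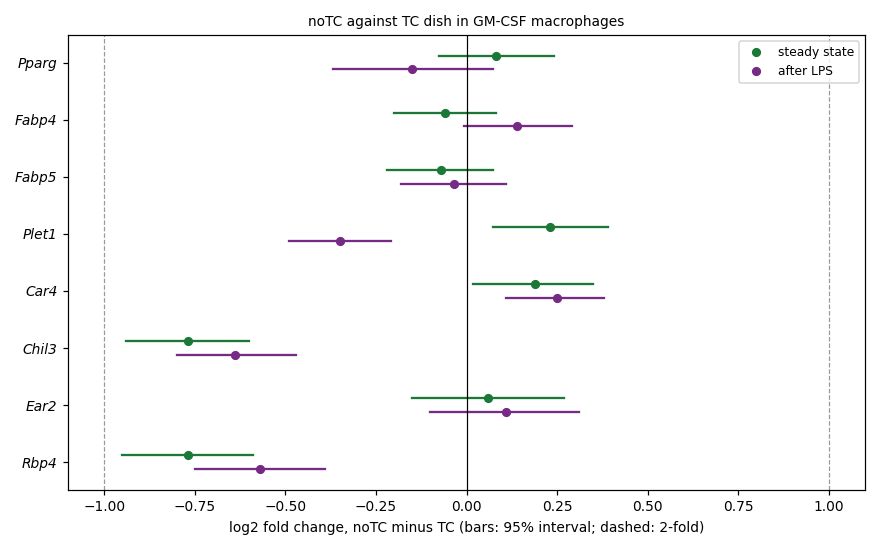
noTC against TC dishes in GM cells. The horizontal axis is the log2 fold change of edgeR with its 95% interval at steady state (green) and upon LPS challenge (purple), and dashed lines mark a 2-fold change. Chil3 and Rbp4 lie between -0.77 and -0.57 in both, and the other genes between -0.35 and 0.25.

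In M cells Chil3 had 1.39 to 3.72 CPM and Rbp4 0.479 to 1.03 CPM over 8 libraries each, with no test passed between the dishes. With LPS, Chil3 in M differed by log2 0.74 on TC and 0.92 on noTC (edgeR adjusted p = 0.012 and 0.0014), which is about the size of the shift of -0.83 and -0.73 that library size scaling gave all genes. Upon LPS challenge Chil3 changed by log2 0.33 in GM-TC and 0.47 in GM-noTC (edgeR adjusted p = 0.0009 and 2.6e-05), and with library size scaling these were -0.15 and -0.041, so the direction depends on the scaling. Rbp4 changed by -0.16 and 0.04 (edgeR adjusted p = 0.11 and 0.7), and by -0.47 on noTC with library size scaling.

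The windows of Chil3 (chr3:106167565-106167814, minus strand) and Rbp4 (chr19:38124829-38124954, minus strand) are shown because both genes were lower on noTC. Capitals in Chil3 mark the STAT motif TTCNNNGAA, which lies 172 bases before the start, and capitals in Rbp4 mark the AP-1 motif TGACTCA on the reverse strand, 142 bases before the start. The stretch of Rbp4 leaves out annotated exons.
Chil3: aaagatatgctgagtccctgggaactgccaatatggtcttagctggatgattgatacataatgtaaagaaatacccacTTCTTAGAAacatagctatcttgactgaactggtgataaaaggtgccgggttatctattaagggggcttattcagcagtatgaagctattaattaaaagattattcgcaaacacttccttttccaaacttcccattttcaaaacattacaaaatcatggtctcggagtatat
Rbp4: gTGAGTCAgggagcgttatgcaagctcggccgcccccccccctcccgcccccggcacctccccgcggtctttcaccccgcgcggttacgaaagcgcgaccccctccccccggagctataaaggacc
The STAT motif was in 7.02% and the AP-1 motif in 4.46% of all windows.

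Ear2 (ENSMUSG00000072596, chromosome 14 from 44102654 to 44103534, plus strand) encodes an RNase of the eosinophil-associated family that alveolar macrophages also express, and it overlaps the gene Gm49101. In GM it had 59.0 and 68.8 CPM on TC and 69.7 and 63.7 CPM on noTC, and with LPS 70.0 and 83.1 CPM on TC and 90.6 and 74.4 CPM on noTC. The ranges with and without LPS did not overlap on either dish. In M it had 4 to 15 counts per library and at most 0.738 CPM. With LPS Ear2 changed by log2 0.26 on TC and 0.31 on noTC in GM (edgeR adjusted p = 0.029 and 0.0097), and by -0.22 and -0.20 with library size scaling. Reads of Ear2 can be split with near-identical relatives, so its level is uncertain. Ear6 and Rnase2a of the same family shared its difference between GM and M, with 53.9 ± 2.5 and 39.5 ± 6.31 CPM in GM-TC against 0.0948 and 0.0586 CPM in M-TC. Their means in GM-noTC were 31.6 and 28.4 CPM, below those in GM-TC, while Ear2 had 63.9 CPM in GM-TC and 66.7 in GM-noTC. At steady state 4 of the 6 tested relatives were called higher in GM on each dish, where 13.2% (TC) and 13% (noTC) of all genes were.

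**Figure D4:**
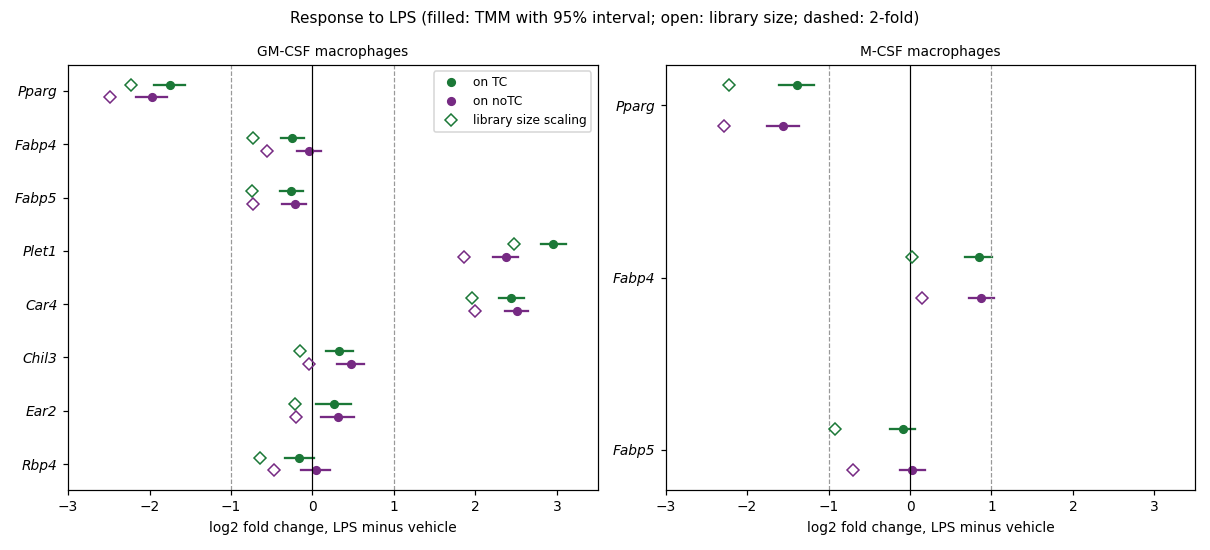
Response to LPS. The horizontal axis is the log2 fold change, filled points are TMM scaled values with 95% intervals, open diamonds are values scaled by library size, green is TC, purple is noTC, and dashed lines mark a 2-fold change. Pparg lies at -1.39 or below and Plet1 and Car4 in GM at 2.37 or above with TMM, and Chil3 and Ear2 in GM change sign with the scaling.

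LPS comparisons depend on the scaling because library size scaling moved the median of all tested genes by -0.53 (TC) and -0.54 (noTC) for GM and by -0.83 (TC) and -0.73 (noTC) for M. Pparg fell under both, by 2.23 and 2.48 on the log2 scale in GM and by 2.22 and 2.28 in M with library size. The calls of Plet1 and Car4 in GM also held.

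Partners and cofactors of PPARγ were examined as a list of 15 genes, 13 of them tested. On noTC, 3 were called higher in GM than in M and 1 lower, where 13% and 9.2% of all genes were. The higher ones were Ppard, a related receptor (36.1 against 9.94 CPM), the coactivator Ppargc1b (10.1 against 2.81 CPM) and Rxra, the RXR partner (112 ± 0.947 against 32.0 ± 1.4 CPM, log2 1.80, edgeR adjusted p = 7.8e-17). The lower one was the coactivator Ncoa3 (128 against 284 CPM), named after its value was seen. On TC, 4 of the 13 were called higher in GM and 1 lower, where 13.2% and 8.54% of all genes were. With LPS, 4 of the 13 were called lower in GM-noTC and none higher, against 12.6% and 13.1% of all genes. Among them, Rxra fell to 34.1 ± 1.85 CPM (log2 -1.71, edgeR adjusted p = 2.3e-16), Ppargc1b fell from 10.1 to 4.2 CPM (-1.26) but rose in M-noTC from 2.81 to 9.77 CPM (1.82), and Rxrb, also named after its value was seen, fell from 20.7 to 10.1 CPM (-1.03).

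Of 18 PPAR target genes of lipid handling, all tested, 3 were called higher in GM than in M on noTC and none lower, a share near the 13% called higher among all genes. They were Mgll, which splits monoglycerides (241 against 7.9 CPM, 30.2-fold), the cholesterol exporter Abcg1 (560 against 135 CPM, 4.15-fold) and Angptl4, an inhibitor of lipoprotein lipase (6.3 against 2.01 CPM, 3.1-fold). The median log2 fold change of the list on noTC was 0.42, and 0.13 with library size scaling. On TC, 5 of the 18 were called higher in GM and none lower, where 13.2% and 8.54% of all genes were. The median on TC was 0.61, and 0.30 with library size scaling. With LPS on noTC, 2 of the 18 were called lower and 2 higher in GM, which is no larger a share than the 12.6% and 13.1% of all genes. Angptl4 fell from 6.3 to 0.162 CPM (-5.23) and Abcg1 from 560 to 120 CPM (-2.22), while Acsl1, which activates fatty acids, rose from 77.9 to 1160 CPM (3.90) and Acadl, a mitochondrial dehydrogenase named after its value was seen, from 64.3 to 133 CPM (1.05). In M-noTC, Angptl4 fell from 2.01 to 0.0499 CPM (-5.19) and Acsl1 rose from 45.3 to 266 CPM (2.56).

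**Figure D5:**
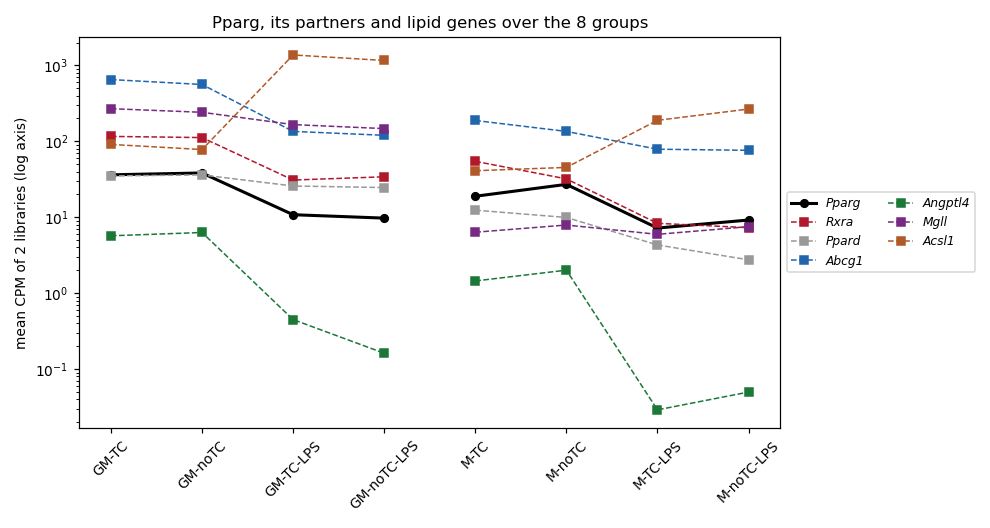
Pparg beside partners and lipid genes. The vertical axis is the mean CPM of 2 libraries per group on a log axis, and the horizontal axis lists the 8 groups. Pparg, Rxra, Ppard, Abcg1 and Angptl4 are lower in each LPS group than in its control, and Acsl1 is higher.

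Of 17 genes of the GM-CSF receptor and its signaling, 12 were called higher in GM than in M on each dish and none lower. Among all genes 13.2% were called higher and 8.54% lower on TC, and 13% and 9.2% on noTC. On noTC the largest were the feedback inhibitors Socs2 (70.7 against 0.523 CPM) and Cish (60.3 against 0.548 CPM) and the transcription factor Irf4 (72.0 against 3.86 CPM). Cish, however, also rose in M-noTC with LPS, from 0.548 to 63.7 CPM (log2 6.84, edgeR adjusted p = 5.2e-22), while Chil3, Ear2 and Rbp4 stayed at or below 3.72 CPM in M with LPS.

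Among 18 further genes of alveolar macrophages, 14 were tested, and 12 of these were called higher in GM than in M on noTC and 11 on TC, with none lower. The shares of all genes were 13% higher and 9.2% lower on noTC, and 13.2% and 8.54% on TC. Examples on noTC were Ear1, a relative of Ear2 (1.2 CPM against 0 counts), Slc39a2, a zinc transporter (28.2 against 0.195 CPM), and Olr1, a scavenger receptor (58.9 against 0.713 CPM). Of the defining markers, Siglecf had 68.1 CPM in GM-noTC and 2.38 in M-noTC, Itgax 944 and 47.1, and Marco 2.21 and 1.76, while Krt19 had no counts and Fabp1 at most 0.303 CPM. These 5 were named outside the rule, as defining genes of alveolar macrophages. Il18 of the same list went the other way, with 1.87 CPM in GM-noTC against 3.16 in M-noTC. Upon LPS challenge it had 8.47 CPM in GM-noTC-LPS against 32.1 in M-noTC-LPS. Between GM and M with LPS, 11 of the 14 were called higher in GM on TC and 10 on noTC, with 1 lower on each. Among all genes 14.9% were called higher and 10.1% lower on TC, and 14.4% and 10.1% on noTC. Comparing LPS with vehicle in GM-noTC, 3 of the 14 were called higher and 1 lower, where 13.1% and 12.6% of all genes were. The largest changes were those of Marco, from 2.21 to 31.4 CPM (3.81), and Olr1, from 58.9 to 363 CPM (2.62). The median of the list was then 0.026, and -0.48 with library size scaling.

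Relatives of the set from the same families were mostly low. Of 7 other fatty acid binding protein genes, 5 stayed under 1 CPM in every group. Fabp3 was not called between GM and M but rose with LPS in GM-noTC, from 4.37 to 57.0 CPM (3.71), and in M-noTC, from 5.27 to 39.5 CPM (2.91), and Fabp7 was called higher in GM-noTC than in M-noTC (5.37 against 0.252 CPM). Of 11 other carbonic anhydrases, 7 stayed under 1 CPM, and Car2 was called higher in GM-noTC (12.6 against 0.486 CPM) and rose with LPS to 38.3 CPM (1.60), together with Car13 (40.2 to 211 CPM, 2.40). The chitinase-like genes had 5 of 6 under 1 CPM, with Chil4 (0.446 CPM) called higher in GM-noTC against 0 counts in M-noTC. Of 12 lipid droplet genes, 9 were tested and 1, Cideb, was called higher in GM-noTC than in M-noTC (1.97 against 0.0337 CPM), where 13% of all genes were. On TC, 2 of the 9 were called higher in GM, against 13.2% of all genes.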

How the data were processed

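RNA-seq of 16 libraries in 8 groups of 2 was analysed. Per the labels and the study's methods, the authors trimmed reads with fastp 0.18.0, aligned them with HISAT2 and deposited expected counts per gene from RSEM. The genome build, annotation and strand setting are not given in the sources used here. Between 6.56% and 8.19% of values were not whole, so the expected counts were rounded. They were tested with edgeR 4.0.16 in R 4.3.3 (quasi-likelihood fit over all 16 libraries, TMM scaling, low genes filtered), and scripts were tested on simulated data. DESeq2 1.42.0, other scalings, no filter, a replicate block, leaving out each library, fitting only the libraries compared and subtracting the carried share were alternatives. The study calls the replicates biological, but whether they came from separate animals is not given in the labels, so p-values measure the spread between these libraries. Replicates of a group differed beyond counting noise, with a chi-square per gene of 12.9 in GM-TC and 1.92 to 5.27 in the other groups. None was thus a copy of the other's counts, but this cannot tell separate cultures from repeat libraries of 1 culture. Counting intervals cover counting error only. All 10 genes were described. From each list, at most the 3 called genes with the largest change were named, with exceptions stated, and some list genes are not reported here. Members and lists were chosen with earlier results of these data known. Sequences are from RefSeq.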

Additional observations from a re-analysis of the deposited data

Results flagged for a closer look

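Some LPS responses differed between growth factors or dishes by a test of the difference itself (edgeR, adjusted over all genes). The Pparg response was lower in GM than in M by log2 -0.36 on TC (edgeR adjusted p = 0.048) and -0.42 on noTC (edgeR adjusted p = 0.016), and in all 8 LPS libraries Pparg was below every steady state library. The TC difference was lost in every other scaling, tool and filter tried, and the noTC difference with library size scaling and with DESeq2. The Fabp4 response differed by -1.09 on TC (edgeR adjusted p = 2.1e-08) and -0.92 on noTC (edgeR adjusted p = 1.9e-07), and this passed in every other scaling, tool and filter tried. The Plet1 response on noTC was larger in GM than in M by 1.32 (edgeR adjusted p = 0.0043), where M-noTC had 38 counts. This was lost after subtraction of the carried share (0.78, edgeR adjusted p = 0.58). In GM the Plet1 response was smaller on noTC than on TC by log2 -0.58 (edgeR adjusted p = 0.0035), a comparison that includes the steady state TC libraries that stood apart. After subtraction of the carried share it was still -0.58 but did not pass (edgeR adjusted p = 0.085).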

How the results depend on the processing

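With 2 libraries per group, depth limits Plet1, Car4, Ear2 and Rbp4 in M to 43 counts or fewer per group. Of 971 single gene values under the alternatives, 927 kept their direction and side of the threshold. For LPS and dish within M, these values cover only Pparg, Fabp4 and Fabp5. The M changes of Plet1, Car4, Chil3, Ear2 and Rbp4, most of them on few counts, are not among them. The number of genes called moved from 4 to 2 for LPS in M-TC when only the libraries compared were fitted. After subtraction of the carried share it moved from 1 to 2 between M-noTC and M-TC and from 0 to 2 between the same groups with LPS. The genes called after subtraction are not reported here, so the 2 do not show that the Plet1 call was kept. Nothing was subtracted from the steady state TC libraries. M-noTC then held 7 counts of Plet1, 25 of Chil3 and 2 of Rbp4, beside 3, 104 and 29 in M-TC. For the LPS response of GM against M on TC the number called moved from 2 to 1 with library size, DESeq2 size factors or only the libraries compared, and to 4 after subtraction. On noTC it moved from 3 to 5 without the filter. For the Plet1 response by dish it moved from 1 to 0 after subtraction. The cause was not tested. Leaving out 1 library gave 1 to 2 calls between M-noTC and M-TC, 3 to 4 for LPS in M-TC, 2 to 4 for LPS in M-noTC, 1 to 3 and 2 to 4 for the LPS response of GM against M on TC and noTC, and 0 to 1 for the response by dish in GM, the 0 without GM-noTC replicate 1.

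Library size scaling turned the sign of the LPS change of Chil3 (-0.15 and -0.041) and Ear2 (-0.22 and -0.20) in GM-TC and GM-noTC, of Rbp4 in GM-noTC (-0.47) and of Fabp5 in M-noTC (-0.70), and of the Fabp5 response of GM against M on TC (0.18). Fitting only the libraries compared gave -0.00098 for Fabp5 in M-noTC. Leaving out 1 library gave ranges across 0 for LPS in GM-noTC of Rbp4 (-0.13 to 0.19) and Fabp4 (-0.12 to 0.034), for noTC against TC in GM of Fabp5 (-0.21 to 0.079), Fabp4 (-0.13 to 0.016) and Ear2 (-0.047 to 0.18), and for the same with LPS of Fabp5 (-0.12 to 0.045) and Ear2 (-0.041 to 0.24).

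Replicate numbers were not shown to pair the libraries (correlation of same-numbered deviations -0.0624 to 0.0199). With a replicate block the call of Pparg in the LPS response of GM against M on TC was lost, which left 1 gene, and of 85 single gene values, limited in M as above, 84 kept their side of the threshold.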
